A study of Mus musculus with 10 samples.

Results

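Krt7, Krt19, Epcam, Sox9, Spp1 and Cftr, genes known from cholangiocytes and from the ductular reaction, were followed in livers given VEGF gene transfer. They were chosen by gene symbol, and each has 1 row among the 24016 transcript rows that hold expression values. AdVEGF was an adenovirus of serotype 5 that carries VEGF-A165 behind the CMV promoter, and AdCMV was the empty virus with that promoter and no transgene, so both groups received virus. All 10 animals were male C57BL/6 mice, 8 to 12 weeks old, injected in the tail vein, and whole liver was taken on day 6 after perfusion with PBS, from 5 mice per group. The CMV promoter is active in many cell types, and total RNA was sequenced after removal of ribosomal RNA.

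Cholangiocytes are the epithelial cells that line the bile ducts and are a small share of liver cells. They are told apart from hepatocytes by the keratins Krt7 and Krt19, by the adhesion protein Epcam and by the transcription factor Sox9, and they secrete chloride and bicarbonate into bile through a route in which the channel Cftr takes part. In a ductular reaction, small duct-like cells that carry these markers spread from the portal area of an injured liver. Spp1 encodes osteopontin, a secreted phosphoprotein that binds integrins and CD44, and that is made by duct cells and also by macrophages and by activated stellate cells. In whole-liver RNA, fewer cells of a type and less RNA per cell cannot be told apart, and the same holds for more cells and more RNA.

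Spp1 was the gene of the 6 that moved most. The promoter of 1 of its 2 RefSeq start sites is therefore given in reference sequence, with the HNF1 half-site GTTAAT in capitals (GRCm38.p6, chr5:104434861-104435160, plus strand, 250 bases before and 50 bases after the start site). Which of these start sites belongs to the transcript measured was not determined.

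Spp1 promoter: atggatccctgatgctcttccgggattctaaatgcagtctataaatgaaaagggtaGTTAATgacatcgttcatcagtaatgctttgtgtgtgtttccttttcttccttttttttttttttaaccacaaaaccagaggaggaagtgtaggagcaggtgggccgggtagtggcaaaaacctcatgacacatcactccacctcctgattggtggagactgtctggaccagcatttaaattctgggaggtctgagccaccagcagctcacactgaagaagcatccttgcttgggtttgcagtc

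Promoter sequences were found for 4 of the 6 genes, Krt7, Epcam, Spp1 and Cftr, with 2 start sites for Spp1. In these promoters 4 short motifs were searched on both strands, GGAATG of TEAD factors, TGGGAA of RBPJ, GTTAAT of HNF1 and ATTGAT of ONECUT factors. The 1 GTTAAT printed above was the only match. In the whole RefSeq table of 32851 mouse promoters of this length, GTTAAT occurred in 7.10%, ATTGAT in 7.54%, GGAATG in 14.7% and TGGGAA in 25.6%. Base composition differed between the promoters, with 45.3% G and C in the Spp1 promoter shown and 36.7% in the other Spp1 promoter. It was 57.0% in that of Epcam, 66.3% in that of Krt7 and 71.3% in that of Cftr.

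The values are RPKM as deposited, that is reads divided by the transcript's length in kilobases and by the tags mapped in that library. Mapped tags, which were inferred from the deposited values, ranged from 5758959 to 13494002 in the AdCMV group and from 5596564 to 8133954 in the AdVEGF group. Major urinary protein (Mup) genes took 18.0% to 50.5% of the reads on transcripts in AdCMV livers and 7.84% to 28.6% in AdVEGF livers. Reads summed over transcript rows exceeded the mapped tags in every library, so some may count in more than 1 row and these shares are approximate. The median over all 13933 rows tested was a log2 fold change of 0.38. With median-ratio scaling, in which each library is divided by the median of its ratios to the average library, that median was -0.0044. Both scales are therefore given where they change a result. A gene was called when the limma test gave an adjusted p under 0.05 (Benjamini-Hochberg over all rows tested) together with a log2 fold change over 1 or under -1.

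Spp1 rose with AdVEGF. The transcript measured, NM_001204233, lies on the plus strand of mm9 at chr5:104865211-104870072. In the AdCMV livers of replicates 1 to 5 its level was 34.4, 45.7, 44.8, 17.9 and 33.4 RPKM, and in the AdVEGF livers it was 591, 714, 455, 626 and 268 RPKM. All 5 AdVEGF livers were far above the highest AdCMV liver, and the groups did not overlap. The mean rose from 35.2 ± 11.3 RPKM (SD, n = 5) to 531 ± 174 RPKM (SD, n = 5), or by 3.91 on the log2 scale (standard error 0.29, 95% interval 3.29 to 4.52; limma, adjusted p = 1.00e-07). This was the 24th largest of the 13933 log2 fold changes. In order of level, the Spp1 row went from place 1635 to place 174 among all rows of the table.

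The values rest on 254 to 931 reads per AdCMV library and on 2725 to 8003 reads per AdVEGF library, or 0.00269% to 0.00690% and 0.0405% to 0.108% of mapped tags. After median-ratio scaling, Spp1 was at 26.9 to 56.8 in the AdCMV group and 267 to 606 in the AdVEGF group, with a difference between groups of 3.50 ± 0.25 in log2 units (standard error; limma, adjusted p = 1.15e-06). Within each group the lowest Spp1 level was in the liver with the largest Mup share, AdCMV replicate 4 at 50.5% and AdVEGF replicate 5 at 28.6%. Both remained the lowest of their group after scaling. Without AdCMV replicate 4 the log2 fold change was 3.68, and without AdVEGF replicate 5 it was 4.13.

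Sox9, a transcription factor of the biliary lineage, was higher by a much smaller amount. Its transcript, NM_011448, lies on the plus strand of mm9 at chr11:112643524-112649071. The AdCMV livers of replicates 1 to 5 were at 5.04, 6.39, 5.92, 4.56 and 4.82 RPKM, and the AdVEGF livers at 6.79, 10.6, 8.93, 14.0 and 10.4 RPKM. The lowest AdVEGF liver was just above the highest AdCMV liver, so that the groups did not overlap. Means were 5.34 ± 0.775 RPKM (SD, n = 5) and 10.1 ± 2.63 RPKM (SD, n = 5), with 115 to 357 reads per AdCMV library and 158 to 471 per AdVEGF library.

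For Sox9 the log2 fold change came to 0.88 (standard error 0.21, 95% interval 0.43 to 1.34; limma, adjusted p = 0.00653). It passed the test for a difference but stayed under the fold that a call required, and it was 0.50 above the median of all rows. After median-ratio scaling the groups overlapped, at 4.81 to 7.93 against 5.81 to 11.7. It then differed by 0.49 on the log2 scale, with a 95% interval from 0.041 to 0.93 (limma, adjusted p = 0.108). Over the alternatives that test for any difference, the adjusted p ran from 0.00350 to 0.181 (limma). The treat alternative, which tests for a change beyond a log2 fold change of 1, did not call Sox9. Without AdVEGF replicate 1, the lowest of its group, the log2 fold change on deposited values was 1.02 and Sox9 was called.

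The ratio of genes within a library does not depend on how libraries are scaled. Spp1 was 3.92 to 7.58 times the level of Sox9 in AdCMV livers, with a median of 6.92, and 25.7 to 87.0 times in AdVEGF livers, with a median of 51.0. The log2 ratio was 3.01 higher in the AdVEGF group, in 5 of 5 livers above every AdCMV liver (two-sided exact permutation test, p = 0.00794, the smallest that 5 against 5 allows; 0.0132 after adjustment over the 5 ratios computed). In these livers Spp1 and Sox9 therefore did not change by the same factor, which restates their log2 fold changes without scaling. Against Krt18, a keratin of hepatocytes and duct cells, the log2 ratio of Sox9 differed by 0.15 (exact permutation test, p = 0.627, adjusted 0.627). Against Hnf4a, a transcription factor of hepatocytes, it was higher by 1.06 (exact permutation test, p = 0.0159, adjusted 0.0198). Hnf4a itself had a log2 fold change of -0.16 on deposited values (limma, adjusted p = 0.603). After median-ratio scaling it was at -0.56 (limma, adjusted p = 0.0185), so this ratio is not a measure of Sox9 alone. None of the 5 ratios was among the planned tests, and the partner genes Krt18 and Hnf4a were chosen after their values had been seen.

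**Figure D1:**
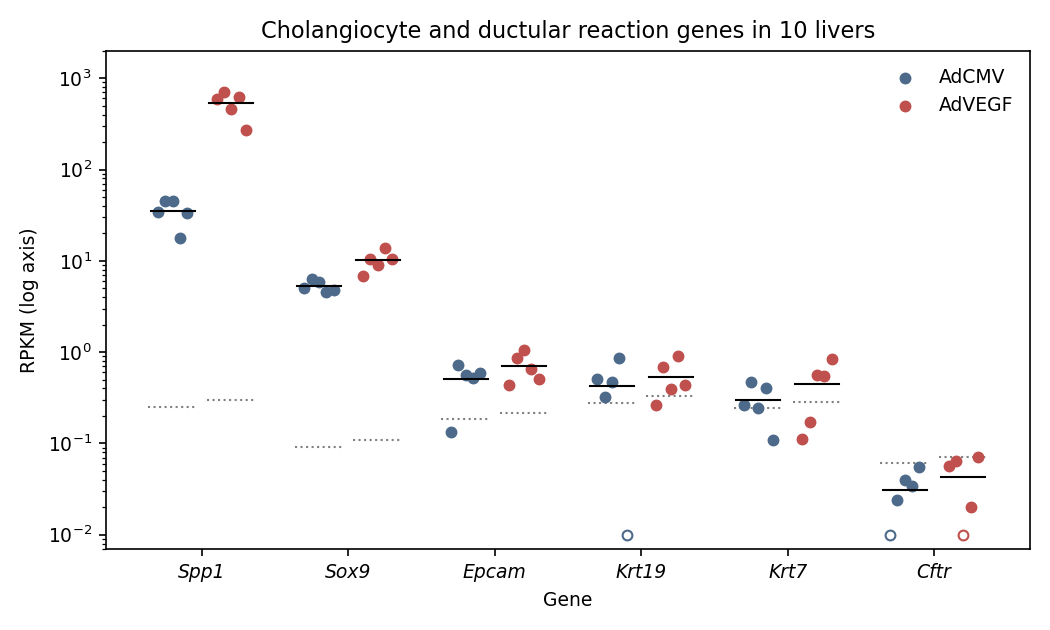
Level of each gene in each liver, in RPKM on a log axis, with AdCMV in blue, AdVEGF in red, black lines for group means and dotted lines for the level that 3 reads give in the median library of the group. Open points at the bottom stand for 0 reads. The 5 AdVEGF livers lie between 268 and 714 RPKM for Spp1 and the AdCMV livers between 17.9 and 45.7 RPKM, while the points of Epcam, Krt19, Krt7 and Cftr overlap between groups and lie at 1.05 RPKM or below.

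Epcam, a cell adhesion protein of the duct epithelium, was close to the limit of detection in both groups. Its transcript, NM_008532, is on the plus strand of mm9 at chr17:88035319-88050467. It was at 0.135, 0.723, 0.557, 0.518 and 0.593 RPKM in AdCMV replicates 1 to 5 and at 0.434, 0.854, 1.05, 0.660 and 0.508 RPKM in AdVEGF replicates 1 to 5. The ranges overlapped, and 2 of the 5 AdVEGF livers were above all AdCMV livers. The means of 0.505 ± 0.221 and 0.700 ± 0.251 RPKM (SD, n = 5 each) differed by a log2 fold change of 0.46 with a 95% interval from -0.38 to 1.30 (limma, adjusted p = 0.398). With 2 to 20 reads per AdCMV library and 5 to 13 per AdVEGF library, a doubling lies inside this interval and a rise of the size seen for Spp1 lies outside it. On the median-ratio scale it was 0.13 (limma, adjusted p = 0.841).

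Krt19, a keratin of the duct cell cytoskeleton, is encoded on the minus strand of mm9 at chr11:100002126-100007233 (NM_008471). Its levels were 0.506, 0.326, 0.465, 0.855 and 0 RPKM in the AdCMV livers and 0.261, 0.690, 0.393, 0.901 and 0.435 RPKM in the AdVEGF livers, on 0 to 11 and 2 to 10 reads. The 0 in AdCMV replicate 5 allows a level of up to 0.382 RPKM, which 3 reads would give in that library, and this limit covers counting error only. The groups overlapped, with means of 0.430 ± 0.310 and 0.536 ± 0.257 RPKM (SD, n = 5 each) and a log2 fold change of 0.49 with a 95% interval from -0.65 to 1.62 (limma, adjusted p = 0.515). Without AdCMV replicate 5 it was -0.035, so that the direction rested on this liver.

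Krt7, the other duct keratin of the set, reached a mean of 0.5 RPKM in neither group, which kept it out of the fit across all rows, and was tested alone. Its transcript, NM_033073, is on the plus strand of mm9 at chr15:101242834-101258237. It was at 0.263, 0.471, 0.242, 0.404 and 0.110 RPKM in AdCMV livers and at 0.113, 0.171, 0.567, 0.546 and 0.849 RPKM in AdVEGF livers, from 1 to 10 and 1 to 9 reads. In the AdVEGF group 3 livers were above all AdCMV livers and the other livers were among the lowest of all, so the groups overlapped. The difference of the mean log2(RPKM + 0.1) was 0.33 (two-sided exact permutation test, p = 0.508). Summed over libraries, 23 AdCMV and 24 AdVEGF reads gave a ratio per mapped tag of 1.36 with a 95% interval of 0.737 to 2.53 for counting error only.

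Cftr, the chloride channel of the duct cell's bile-facing membrane, was near 0. Its transcript, NM_021050, spans chr6:18120687-18272769 on the plus strand of mm9. The AdCMV livers were at 0, 0.024, 0.040, 0.034 and 0.055 RPKM and the AdVEGF livers at 0.057, 0.064, 0, 0.020 and 0.071 RPKM, with at most 2 and 3 reads in any library. The library at 0 in the AdCMV group allows up to 0.0660 RPKM and that in the AdVEGF group up to 0.0854 RPKM. The groups overlapped, and the difference of 0.11 on the log2(RPKM + 0.1) scale (two-sided exact permutation test, p = 0.571) was not detectable at this depth. The summed reads, 8 and 9, gave a ratio per mapped tag of 1.47 with a 95% counting interval of 0.504 to 4.38.

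Per length of transcript, the order of the mean levels was Spp1, Sox9, Epcam, Krt19, Krt7 and Cftr in both groups. Spp1 and Sox9, Sox9 and Epcam, and Krt7 and Cftr followed each other in this order in 5 of 5 livers of each group without overlap. Epcam and Krt19 overlapped, as did Krt19 and Krt7, and these neighbours did not differ beyond their spread. Over the 10 livers, after median-ratio scaling and subtraction of the group means, Krt7 and Sox9 had a Pearson r of 0.75, Krt19 and Sox9 of 0.61 and Krt7 and Krt19 of 0.57. The r of Sox9 and Spp1 was 0.10 and that of Krt7 and Spp1 was -0.39. These are descriptions over livers that differ in library depth, and for the keratins they rest on few reads.

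Of the 6 genes, 4 passed the filter, and 1, Spp1, was called higher and none lower. Among all 13933 rows tested, 13.0% were called higher and 1.54% lower, and after median-ratio scaling 7.77% were called higher and 3.14% lower, again with Spp1 as the 1 gene called of these 4. Groups without overlap, with AdVEGF higher, were seen for Spp1 and Sox9, and for 14.3% of all rows tested. The set is described by Spp1 rather than by a shared rise of its genes. Krt7, Krt19, Epcam and Cftr, which are more restricted to epithelium, were measured at no more than 20 reads in any library.

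**Figure D2:**
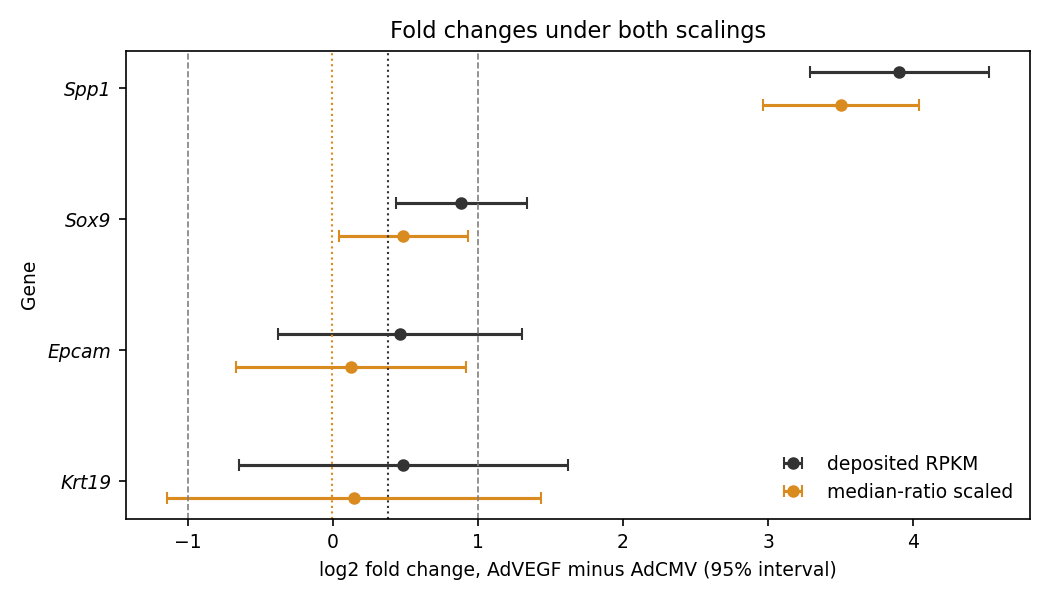
Log2 fold change of the 4 genes that passed the filter, AdVEGF minus AdCMV, with 95% intervals from limma (n = 5 per group), on deposited RPKM in dark grey and after median-ratio scaling in orange. Dotted lines give the median of all rows tested on each scale, 0.38 and -0.0044, and dashed lines the fold that a call required. Spp1 at 3.91 and 3.50 lies beyond the dashed line on both scales, and the intervals of Epcam and Krt19 include 0.

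Other genes of the duct epithelium were then read, in a list of 22 genes without these 6. On deposited values 5 were called higher, 1 was called lower, 8 were tested and not called and 8 did not pass the filter, and the median log2 fold change of those tested was 0.64 beside 0.38 for all rows. A low gene can pass the filter through the group where it is higher, so the counts of this list and of those below are only descriptions. They are read against the 13.0% of all rows called higher on deposited values and the 7.77% after median-ratio scaling. Sox4, a transcription factor of progenitor and many other cells, rose from 0.898 ± 0.327 to 7.81 ± 0.856 RPKM (SD, n = 5 each), or by 3.04 on the log2 scale (adjusted p = 1.78e-07). Cd24a, a surface glycoprotein of duct and blood cells, rose from 1.38 ± 0.483 to 5.64 ± 0.719 RPKM (log2 fold change 2.02, adjusted p = 1.73e-05). Bicc1, an RNA-binding protein needed for normal ducts and kidney tubules, had a log2 fold change of 1.50 (adjusted p = 0.00507), and the collagen receptor kinase Ddr1 one of 1.36 (adjusted p = 0.0152). The tetraspanin Tspan8 was called at 1.20 (adjusted p = 0.0265) on deposited values but not after median-ratio scaling, where it was at 0.87 (adjusted p = 0.0509). The other 4 were called on both scales.

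Wfdc2, a secreted protein of epithelia, moved the other way. It fell from 16.0 ± 8.05 to 5.33 ± 3.17 RPKM (SD, n = 5 each), a difference of -1.55 on the log2 scale (limma, adjusted p = 0.00632) and of -1.94 after scaling (adjusted p = 0.00278), although the groups overlapped at 6.43 to 26.2 and 2.96 to 10.9 RPKM. The keratins Krt18 and Krt8, the most abundant genes of the list and also expressed by hepatocytes, were at 135 ± 51.2 and 222 ± 52.7 RPKM and at 128 ± 58.1 and 185 ± 44.9 RPKM (SD, n = 5 each). Neither was called, with log2 fold changes of 0.75 and 0.59. The called genes of this list therefore moved in both directions, 5 higher and 1, Wfdc2, lower.

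For bile transport, ion channels and cilia, 11 genes were listed, of which 8 passed the filter, 3 were called higher and none lower, with a median log2 fold change of 0.87. Aqp1, a water channel of duct cells and also of endothelial cells, rose from 15.4 ± 5.29 to 70.9 ± 12.3 RPKM (SD, n = 5 each; log2 fold change 2.25, adjusted p = 2.57e-06) without overlap. Itpr3, the calcium release channel of duct cells, at 1.16 (adjusted p = 0.0443) and the cilium protein Pkd1 at 1.03 (adjusted p = 0.0182) were called on deposited values and not after median-ratio scaling, where they were at 0.84 and 0.65. Slc10a2, the bile acid uptake carrier that was second in level over all 10 livers, was at 16.5 ± 4.41 and 26.5 ± 5.96 RPKM (SD, n = 5 each) and was not called at 0.68. The secretin receptor gene Sctr, like Cftr a part of the secretory route, had at most 2 reads in an AdCMV library and 5 in an AdVEGF library.

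Signals known to drive or accompany a ductular reaction formed a list of 16 genes, of which 14 passed the filter, 6 were called higher and none lower, with a median log2 fold change of 0.95. The Notch ligand Jag1 was at 0.427 to 1.18 RPKM in the 5 AdCMV livers and rose to 1.97 to 3.88 RPKM in the 5 AdVEGF livers (log2 fold change 1.64, adjusted p = 0.000565). The Notch target Hes1 rose from 14.5 ± 6.80 to 64.6 ± 17.0 RPKM, or by 2.20 on the log2 scale (adjusted p = 1.23e-05). Wwtr1, which encodes the Hippo pathway co-activator TAZ, had a log2 fold change of 1.82 (adjusted p = 1.99e-05), and the TAZ and YAP target Ctgf one of 2.14 (adjusted p = 0.00142). The growth factor Tgfb2 rose by 2.35 on the log2 scale (adjusted p = 0.000471). For these 5 of the 6 called genes the groups did not overlap, beside 14.3% of all rows tested without overlap and with AdVEGF higher. All 5 were also called after median-ratio scaling. Jag1, Hes1 and Wwtr1 are active in endothelial cells too.

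The TWEAK receptor gene Tnfrsf12a, the second most abundant gene of the list over all 10 livers, was called at 1.19 (adjusted p = 0.0134) on deposited values, with means of 16.1 ± 10.4 and 33.5 ± 10.3 RPKM (SD, n = 5 each). Its groups overlapped, at 8.68 to 34.0 and 20.2 to 48.9 RPKM. After scaling it was at 0.79 and was not called. Il6 had at most 1 read in any library, and Fgf7 at most 3.

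Receptors for osteopontin were measured in all 7 genes listed, and 3 were called higher and none lower, with a median log2 fold change of 0.78. The integrin subunit genes Itgb3 and Itga9 rose by 2.49 (adjusted p = 1.21e-05) and 1.78 (adjusted p = 4.38e-05) on the log2 scale. Itgb1, the most abundant, rose from 35.2 ± 12.1 to 69.4 ± 4.39 RPKM (SD, n = 5 each; log2 fold change 1.04, adjusted p = 0.00230) and was under the fold required, at 0.64, after median-ratio scaling. Cd44 was at 8.40 ± 2.38 and 14.2 ± 2.13 RPKM (SD, n = 5 each) and its log2 fold change of 0.78 (adjusted p = 0.0173) was not a call. Beside them, Spp1 was at 3.91, and the difference between ligand and receptor genes was not tested.

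**Figure D3:**
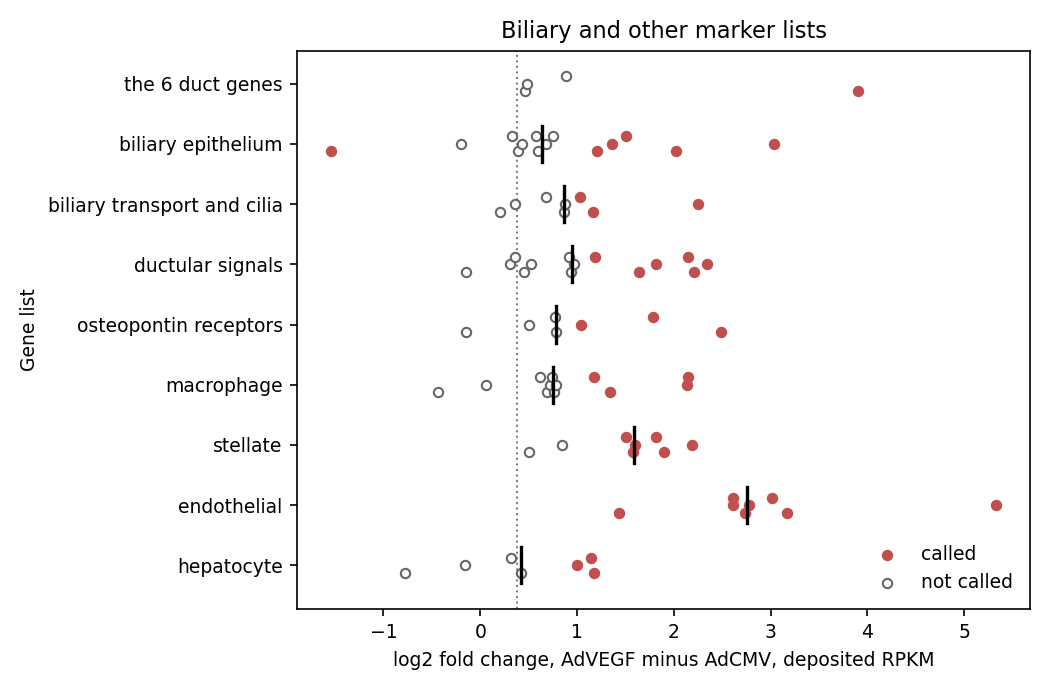
Log2 fold change of every tested gene of 9 lists, AdVEGF minus AdCMV on deposited RPKM, with called genes in red, other genes open, a black bar for the median of each list but the first and a dotted line for the median of all rows, 0.38. Spp1 at 3.91 stands apart in the first row, and all 8 endothelial genes in the row second from the bottom are called, with a median of 2.76.

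Markers of other liver cells moved in the same livers as Spp1. Of 8 endothelial genes 8 were called higher, with a median log2 fold change of 2.76, and their summed level was 15.2 to 34.0 RPKM in AdCMV livers and 194 to 219 RPKM in AdVEGF livers. Of 8 stellate cell genes 6 were called higher at a median of 1.59, with summed levels of 84.1 to 129 and 145 to 294 RPKM. The summed levels of neither list overlapped between groups on deposited values, and both counts were the same after median-ratio scaling. Within the stellate list Reln and Dcn did overlap. Dcn, the most abundant stellate gene listed, was at 71.1 ± 14.5 and 130 ± 37.0 RPKM (SD, n = 5 each) and was not called. Summed levels of the hepatocyte, osteopontin receptor, ductular signal and bile transport lists did not overlap on deposited values either. The sums were not computed after median-ratio scaling, where the hepatocyte list had a median log2 fold change of 0.018.

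Of 12 macrophage genes 4 were called higher, Clec4f, Vsig4, Csf1r and Trem2, and 2 after scaling, Clec4f and Vsig4. The log2 fold changes of Clec4f and Vsig4 were 2.15 and 2.14 on deposited values. Cd5l and C1qa, the most abundant genes of the list, were at 0.78 and 0.74 and were not called. Gpnmb alone of the list had a negative value on that scale. On deposited values the median of the list was 0.75, with overlapping summed levels of 109 to 239 and 224 to 331 RPKM. Trem2, a receptor of lipid-laden macrophages, had a log2 fold change of 1.34 (adjusted p = 0.0234) on deposited values, with groups that overlapped at 0.652 to 1.68 and 1.41 to 8.10 RPKM, and was not called after median-ratio scaling, where it was at 0.96 (adjusted p = 0.122). Gpnmb and Lgals3, which such macrophages express together with Spp1, were at -0.44 and 0.064 on deposited values and at -0.80 and -0.34 after scaling, so that the direction of Lgals3 turned, and neither was called on either scale. Of 7 hepatocyte genes, 3 were called higher on deposited values and none after scaling, when 1 was called lower, at a median of 0.42 on deposited values, and their summed levels were 13033 to 20612 and 27824 to 32311 RPKM. The part of any of these cells in the level of Spp1 was not tested.

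Cells of the liver surface and of neighbouring organs can also carry duct markers. Of 6 mesothelial genes 1 passed the filter and none was called, with a summed level of at most 2.29 RPKM in any liver. Of 7 genes of the exocrine pancreas 1 passed the filter and none was called. That gene, Amy2a5, was at 1.31 ± 1.06 and 0.646 ± 0.587 RPKM (SD, n = 5 each). It had at most 36 reads in an AdCMV library and 16 in an AdVEGF library. Cela2a had at most 6 and 7 reads, while Cpa1, Pnlip, Clps and Prss2 had 0 reads in all 10 libraries. Of 6 hepatic progenitor and fetal genes 2 passed the filter and none was called. Afp, the fetal albumin-like protein, was at 0.792 ± 0.624 and 1.10 ± 0.737 RPKM (SD, n = 5 each).

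The genes around Spp1 and Sox9, within 300000 bases on mm9, were looked at after their values had been seen. Dspp, Ibsp and Mepe, bone and tooth phosphoprotein genes of the same cluster as Spp1, had 0 reads in all libraries, and Dmp1 had at most 8. Pkd2, the nearest row at 18404 bases and a cilium channel gene, was at 3.86 ± 1.51 and 6.73 ± 0.931 RPKM (SD, n = 5 each; log2 fold change 0.86, adjusted p = 0.0207), under the fold required. BC006965, on the other strand 70854 bases from Sox9, had a log2 fold change of 0.54 (adjusted p = 0.255). No row of either region other than Spp1 was called.

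The genes whose levels followed those of Spp1 most closely over the 10 livers, after median-ratio scaling and subtraction of group means, were Tubgcp5 with a Pearson r of 0.94, Gngt2 with 0.94 and Snhg7 with 0.93. Of these, Gngt2 was called, with a log2 fold change of 1.64 (adjusted p = 2.33e-05). For Sox9 they were 0610010K14Rik at 0.96, Ier5 at 0.93 and Ssbp3 at 0.93, and none was called. For Epcam they were E2f4, Ctbp2 and Tbc1d8, and for Krt19 they were Arpin, Tchp and Ddx54, with r of 0.93 to 0.99, on the few reads given above. Of these, Ctbp2 was called, with a log2 fold change of 2.07 (adjusted p = 5.35e-06). These are the 3 genes with the highest r among the 12267 or 12268 compared for each, over only 10 livers, and they are given as a description.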

How the data were processed

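Liver RNA of 5 AdVEGF and 5 AdCMV mice was sequenced. The authors mapped reads to mm9 with TopHat, used HOMER (both from the submitters' processing notes) and deposited RPKM values per RefSeq transcript and mouse, with transcript lengths. Their log fold change and FDR columns were not used. The test behind those columns is not given in the sources used here.

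Reads behind each RPKM, and the mapped tags of each library, were recovered from the step size. At least 99.987% of the read values that could be resolved were whole. Depth limits are for 3 reads and intervals are 95%. limma 3.58.1 (R 4.3.3, lmFit and eBayes with trend) was run on log2(RPKM + 0.1), which understates changes of low genes, over the 13933 rows whose mean exceeded 0.5 RPKM in either group, and p-values were adjusted over all of them (Benjamini-Hochberg). Unless another test is named, an adjusted p is from this fit. Exact permutation tests used Python 3.11.15 and scipy 1.17.1. The test was checked on simulated data.

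Other settings tried were scaling by median ratios or upper quartiles, totals without the Mup genes, other filters and pseudocounts, treat, voom, a replicate block, 1 row per symbol and leaving out each mouse. The members and lists were chosen with earlier results of these data known. Named singly were the 6 genes, called genes of the duct lists and genes at 0. The 3 most alike by Pearson r were named among genes over 1 RPKM. The 2 most abundant genes were named for the duct, ductular signal and macrophage lists, and not always for the other lists. Others named, such as Sctr, Il6, Cd44, Gpnmb and Afp, were chosen after their values were seen. Replicates are labelled biological replicates.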

Additional observations from a re-analysis of the deposited data

How the results depend on the processing

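Spp1 was called under all 23 alternatives, with log2 fold changes of 3.40 to 4.13. Sox9 ranged from 0.39 to 1.02 and was called only without AdVEGF replicate 1; leaving out each mouse gave 0.76 to 1.02. The number of the 6 genes called was 1, or 2 without that mouse, and leaving out each mouse gave 1 to 2. Krt7 turned to -0.058 with library totals without the Mup genes, and Krt19 ran from -0.035 to 0.78 when each mouse was left out. Epcam and Cftr kept their direction and were not past the threshold in the 22 and 15 alternatives run for them.

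The number of all rows called higher was 1808. It was 1082 with median-ratio scaling, 1125 with upper quartile scaling, 973 with totals without the Mup genes, 954 with a pseudocount of 1 and 503 with treat, and leaving out each mouse gave 1425 to 2357. In 2 alternatives chosen after seeing the data it was 1135 (voom on recovered reads with median-ratio scaling) and 1180 (median-ratio scaling and no filter). Rows called lower numbered 214, and 438 with median-ratio, 392 with upper quartile and 558 with Mup-free scaling, 36 with treat and 477 and 445 in those 2. The cause was not tested.

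With the replicate number as a block, 1933 rows were called higher and 256 lower, and Spp1 remained the 1 gene called of the 6. Deviations of same-numbered mice correlated at 0.036, 0.11, 0.0076, 0.096 and 0.29, and not every mouse matched its own number best. For low genes the depth is the limit: 3 reads on a transcript of 1 kb give 0.222 to 0.536 RPKM.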
